A study of Mus musculus with 6 samples.

Results

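Akr1c18 and 7 other genes of steroid metabolism (Akr1c12, Akr1c13, Cyp11a1, Hsd11b1, Hsd17b4, Srd5a1 and Nr3c1) were examined in induced regulatory T (iTreg) cells with and without miR-31. Akr1c18 was chosen by its large measured fall in the same comparison, so its values are given as a description with no test. The other genes were chosen by name for their place in steroid metabolism. That choice was made with earlier results of these data known, which their adjusted p-values do not account for. Of the 27029 gene names on the array, 7 of these 8 were found, on 14 of 41174 probes, and Akr1c13 had no probe of its name. The cells came from 6-week-old mice on a C57BL/6 background, 3 miR-31 fl/fl CD4Cre (cKO) mice and 3 miR-31 fl/fl mice without Cre (control). All 6 mice therefore carried the floxed miR-31 allele, and Cre, driven by Cd4 and thus active across the T-cell lineage, was present only in the cKO mice. Naive CD4+CD25-Foxp3gfp-CD62Lhi T cells sorted from spleen were stimulated for 4 days with anti-CD3 bound to the plate at 5 μg/ml and anti-CD28 in solution at 2 μg/ml, in the presence of TGF-β1 at 5 ng/ml and IL-2 at 40 ng/ml. Each mouse gave 1 culture and each culture 1 one-colour Agilent array. Because RNA was taken from whole cultures, fewer cells of a type and less RNA per cell cannot be told apart in any value below.

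Steroids are made from cholesterol, activated or inactivated by oxidoreductases, and read by nuclear receptors. Cyp11a1, the side-chain cleavage enzyme, makes pregnenolone, from which progesterone and glucocorticoids derive. Akr1c18, 20α-hydroxysteroid dehydrogenase, converts progesterone to a much less active form and is known both from the ovary, where it is active at the end of pregnancy, and from T cells, where its activity was long used as a sign of the response to interleukin-3. Hsd11b1 regenerates active glucocorticoid, Srd5a1 reduces progesterone and testosterone at the 5α position, and Nr3c1 is the glucocorticoid receptor.

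The probes of the Akr1c genes are shown because the widest differences rested on them. Each is 60 bases long, as given on the array, and all letters are in lower case because no part of them was singled out. In the array's mm9 annotation the Akr1c18 probe lies on the minus strand at chr13:4134506-4135881 and the brighter Akr1c12 probe on the minus strand at chr13:4267675-4269464, both across an intron. The dimmer Akr1c12 probe lies on the minus strand at chr13:4272198-4272257 and that of Akr1c19, the neighbouring reductase gene, on the plus strand at chr13:4238234-4238293. No pair of these 4 probes shared a run of more than 6 bases. This compares probes only. Whether the RNA of one Akr1c gene also binds the probe of another was not tested, because the transcripts were not analysed.
Akr1c18: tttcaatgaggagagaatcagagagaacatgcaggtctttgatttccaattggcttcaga
Akr1c12, brighter probe: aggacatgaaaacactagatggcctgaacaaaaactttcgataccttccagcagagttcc
Akr1c12, dimmer probe: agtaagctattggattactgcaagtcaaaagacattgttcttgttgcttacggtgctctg
Akr1c19: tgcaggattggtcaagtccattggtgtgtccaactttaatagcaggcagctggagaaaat

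The deleted microRNA is shown with its seed, bases 2 to 8, in capitals, as RefSeq gives it on the minus strand of GRCm38.p6 at chr4:88910614-88910635. No probe of the array reads miR-31 itself, so its loss was not checked here.
miR-31-5p: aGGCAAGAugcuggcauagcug

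Values are the log2 signal of a probe minus the 75th percentile of its own array, so 0 is the 75th percentile, and differences are cKO minus control. Akr1c18 was far lower in the cKO cultures. Its single probe read 0.65, -0.50 and -1.58 in cKO replicates 1 to 3 and 3.30, 3.30 and 4.86 in the controls. On the linear scale these were 1.57, 0.705 and 0.335 times the 75th percentile against 9.88, 9.83 and 28.9 times. The groups were separated by 2.65, the distance from the highest cKO array to the lowest control array. The means were -0.48 ± 1.11 and 3.82 ± 0.90 (SD, n = 3 each), a difference of -4.30 ± 0.67 (SE), or 19.7-fold. No other of the 22265 tested probes, those that 3 or more arrays read well above background, was lower by more. The difference was -3.75 without cKO replicate 3 and -3.78 without control replicate 3, the lowest and the highest array for this probe.

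Akr1c12, a reductase encoded in the same cluster as Akr1c18, was lower in every cKO culture on both of its probes. The brighter probe read 0.00, -1.21 and -0.97 in the cKO arrays and 1.31, 0.99 and 1.52 in the controls, a difference of -1.999 ± 0.333, or 4.00-fold (adjusted p = 0.0771 in limma, a linear model fitted to each tested probe with a shared estimate of the spread). The dimmer probe read -2.46, -3.50 and -3.74 against -1.04, -1.35 and -0.68, a difference of -2.21 ± 0.36 (limma, adjusted p = 0.0739). Neither passed the threshold of 0.05 over all tested probes. Both probes gave nearly the same difference, although normexp background correction brought that of the dimmer probe to -0.92. On both, as for Akr1c18, cKO replicate 1 was the highest cKO array and control replicate 3 the highest of all. With only the probes well above background on all 6 arrays tested, the adjusted p was 0.0495 for the dimmer and 0.0504 for the brighter probe, and over all alternatives that of the brighter probe ranged from 0.0504 to 0.638.

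Akr1c13 could not be measured by name. In RefSeq it lies at chr13:4191168-4205604 of GRCm38.p6, between Akr1c18 and Akr1c19. The 250 bases before its start were identical to those before the start of Akr1c12 at 235 of 246 aligned bases, with 8 gap positions. The transcripts of the Akr1c genes were not analysed here, so whether the Akr1c12 probes also bind Akr1c13 RNA was not tested.

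**Figure D1:**
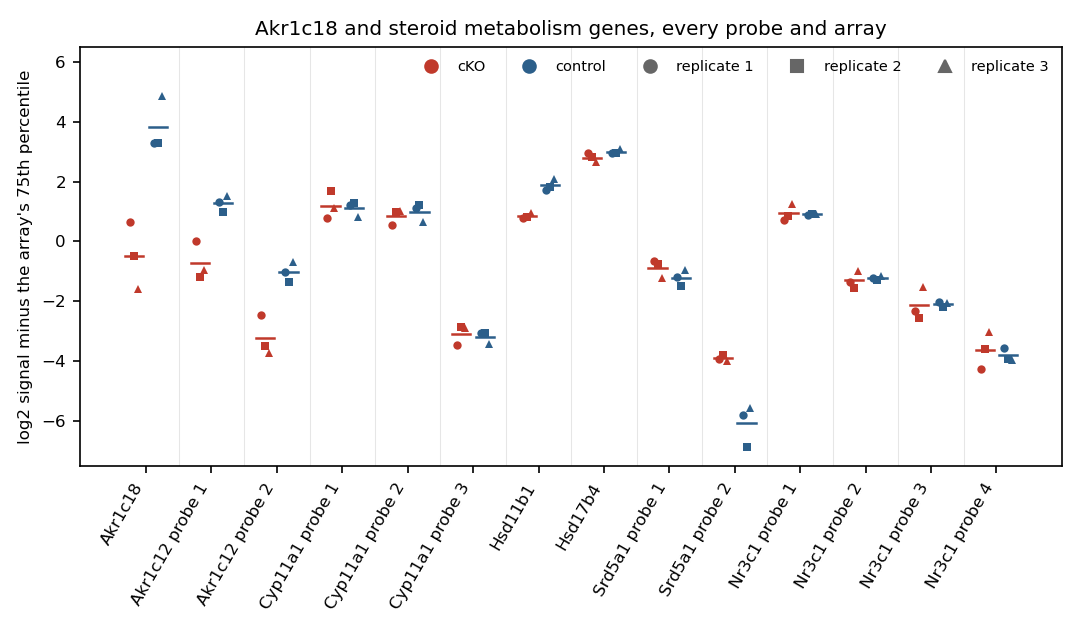
Log2 signal minus the array's 75th percentile (vertical axis) for each of the 14 probes of the 7 genes found on the array (horizontal axis, probes of a gene numbered from the brightest). Points are single arrays, the symbol gives the replicate, and the bars are the means of 3 cKO (red) and 3 control (blue) arrays. The cKO arrays lie below the control arrays for Akr1c18, both Akr1c12 probes, Hsd11b1 and, by only 0.01, Hsd17b4. They lie above for the dimmer Srd5a1 probe, which was well above background on 0 control arrays. The groups overlap for the brighter Srd5a1 probe, Cyp11a1 and Nr3c1.

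Hsd11b1, the enzyme that regenerates active glucocorticoid, was about 2.05-fold lower in the cKO cultures. Its single probe read 0.78, 0.80 and 0.96 in the cKO arrays and 1.73, 1.83 and 2.09 in the controls. The spread within each group was small beside the difference, with SDs of 0.10 and 0.18 (n = 3 each) around means of 0.85 and 1.88. The difference was -1.03 ± 0.13 and did not pass the threshold (limma, adjusted p = 0.0610). It passed where only the probes well above background on all 6 arrays were tested (adjusted p = 0.0416), and its adjusted p ranged from 0.0416 to 0.625 over the alternatives.

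Cyp11a1, the enzyme of the first step of steroid synthesis, had 3 probes, and none separated the groups. The brightest read 0.80, 1.69 and 1.11 in the cKO arrays and 1.22, 1.29 and 0.81 in the controls. Its difference was 0.09 ± 0.26, with a 95% interval of -0.53 to 0.72 (limma, adjusted p = 0.842). The next gave -0.14 ± 0.21 with an interval of -0.64 to 0.37, and the dimmest, designed on a different transcript, 0.11 ± 0.21 with an interval of -0.39 to 0.61. An absolute log2 difference above 0.72 therefore lay outside all 3 intervals.

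Hsd17b4, the peroxisomal multifunctional enzyme that shares its dehydrogenase activity between steroids and fatty acids, differed little. It read 2.95, 2.83 and 2.64 in the cKO arrays and 2.95, 2.97 and 3.09 in the controls. The highest cKO array lay 0.01 below the lowest control array. The difference was -0.20 ± 0.12, with an interval of -0.48 to 0.09 (limma, adjusted p = 0.340).

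Srd5a1, steroid 5α-reductase, had 2 probes that differed in size. The brighter read -0.64, -0.76 and -1.23 in the cKO arrays and -1.19, -1.50 and -0.96 in the controls, so the groups overlapped. Its difference was 0.34 ± 0.21, with an interval of -0.17 to 0.85 (limma, adjusted p = 0.349). The dimmer probe, designed on another transcript at chr13:69733518-69733577 (mm9, minus strand), read -3.94, -3.80 and -3.99 in the cKO arrays, where it was well above background on all 3, and -5.82, -6.88 and -5.58 in the controls, where it was well above background on 0 of 3. For that probe the cKO signal was at least 1.50-fold higher, counting each control array at the higher of its own value and the lowest signal well above background on that array. This probe entered the fit only through the group in which it was high, so no test of it is given.

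Nr3c1, the glucocorticoid receptor, had 4 probes and overlapping groups on all of them. The brightest read 0.72, 0.84 and 1.24 in the cKO arrays and 0.89, 0.92 and 0.93 in the controls, a difference of 0.02 ± 0.15 with an interval of -0.35 to 0.40 (limma, adjusted p = 0.942). The other 3 probes had differences from -0.07 to 0.19, and the widest interval among the 4 was -0.59 to 0.97. The cKO arrays spread more than the controls on this gene, with SDs of 0.27 and 0.02 for the brightest probe, and cKO replicate 3 was the highest array on all 4 probes.

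Leaving out Akr1c18 and the dimmer Srd5a1 probe, for which only a bound was measured, 0 of the 6 genes and 0 of their 12 probes passed an adjusted p of 0.05, against 0.247% of all tested probes. At an unadjusted p under 0.05 there were 2 genes on 3 probes, all lower, against 22.8% of all tested probes in either direction. All cKO arrays lay below all control arrays for 3 of the 6 genes (Akr1c12, Hsd11b1 and Hsd17b4, by their brightest probes), and above them for 0. Over the 22246 tested probes with a value on every array, these shares were 20.5% below and 16.0% above. The median difference of the 6 genes was -0.09, and that of all tested probes -0.04.

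**Figure D2:**
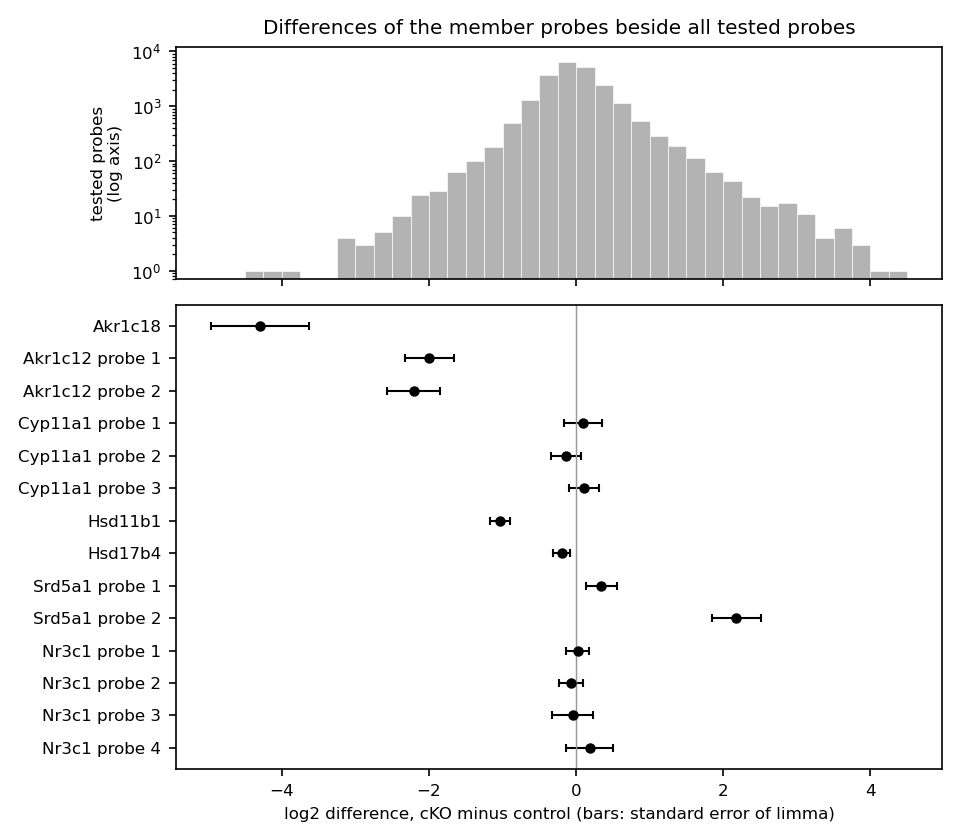
Upper panel, the number of tested probes (log axis) by log2 difference, cKO minus control, in steps of 0.25. Lower panel, the difference of each of the 14 probes with its standard error on the same axis. Akr1c18 at -4.30 lies at the left end of all tested probes, the Akr1c12 probes at -1.999 and -2.211, Hsd11b1 at -1.03, and the probes of Cyp11a1 and Nr3c1 lie within 0.19 of 0. The dimmer Srd5a1 probe is drawn at its fitted value, of which only the bound given above is measured.

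Of the 6 arrays, 4 (the 3 cKO and control replicate 1) were on one slide and control replicates 2 and 3 on another, so the difference was also taken within the shared slide. The groups of Akr1c18, Akr1c12, Hsd11b1 and Hsd17b4 did not overlap over the 6 arrays. Their order within that slide was thus fixed beforehand and is no further check, so only sizes are given. The highest cKO value minus control replicate 1 was -2.66 for Akr1c18 (0.65 against 3.30) and -1.31 for the brighter Akr1c12 probe. It was -0.77 for Hsd11b1 and -0.006 for Hsd17b4. The mean differences within that slide were -3.78, -2.04, -0.88 and -0.15 for these genes in turn, each against a single control array. Between the slides, slide and genotype cannot be told apart.

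The other Akr1c genes were examined because Akr1c18 and Akr1c12 lie in one cluster. Akr1c19 was lower in every cKO culture. Its brighter probe read -0.97, -1.87 and -2.06 in the cKO arrays and 0.34, 0.04 and 0.52 in the controls, a difference of -1.93 ± 0.31, or 3.80-fold (limma, adjusted p = 0.0719). It passed with only the probes well above background on all 6 arrays (adjusted p = 0.0484), and its adjusted p over the alternatives ranged from 0.0484 to 0.621. Its second probe was well above background on 0 arrays. The other 5 Akr1c genes on the array, Akr1c6, Akr1c14, Akr1c20, Akr1c21 and Akr1cl, were well above background on at most 1 array and were not tested. Apart from Akr1c18, which was chosen for its fall, the measurable Akr1c genes were thus Akr1c12 and Akr1c19, whose 3 tested probes had every cKO array below every control array, an order that 20.5% of all tested probes shared.

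The region was then read out to 1000000 bases on either side of the Akr1c probes of chromosome 13, which run from 4089196 to 4585609 in mm9. It held 14 tested probes of other names, of 8 gene names. Their differences ran from -0.79 to 0.47 with a median of -0.07, and the lowest adjusted p among them was 0.103 (limma). All cKO arrays lay below the controls on 4 of them and above on 2, against 20.5% and 16.0% of all tested probes. This window was chosen after the values of the Akr1c genes were seen.

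**Figure D3:**
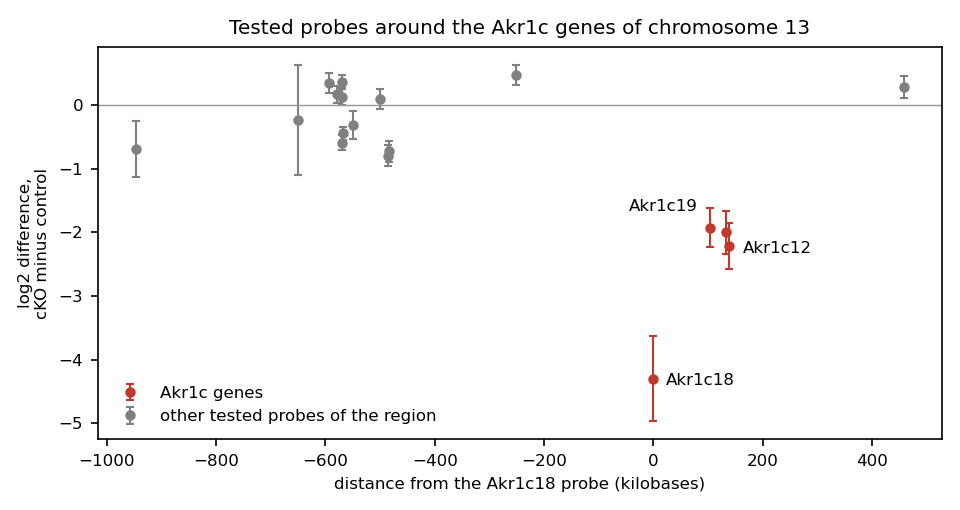
Log2 difference, cKO minus control, with the standard error of limma (vertical axis) against the distance from the Akr1c18 probe in kilobases (horizontal axis), for every tested probe of the region. The 4 Akr1c probes (red) lie between -4.30 and -1.93, and the 14 other probes (grey) between -0.79 and 0.47.

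The 250 bases before the start of Akr1c18 and Akr1c12 are shown because these genes differed in the same direction. They come from RefSeq, GRCm38.p6, minus strand, at chr13:4150647-4150896 and chr13:4279400-4279649. Both strands were searched for TTCNNNGAA (bound by STAT factors, which interleukin-3 activates), AGAACA (the core of the glucocorticoid receptor's site), TGANTCA (AP-1) and TATAAA, and a match would be in capitals. Neither stretch held a match to any of the 4, while 7.02% of the 32851 promoter stretches of this length held the STAT motif. The stretch before Akr1c19, most of which lies inside the annotated gene, held 1 match to the STAT motif, starting 24 bases before the start site. A match is a description of letters and not of binding.
Akr1c18: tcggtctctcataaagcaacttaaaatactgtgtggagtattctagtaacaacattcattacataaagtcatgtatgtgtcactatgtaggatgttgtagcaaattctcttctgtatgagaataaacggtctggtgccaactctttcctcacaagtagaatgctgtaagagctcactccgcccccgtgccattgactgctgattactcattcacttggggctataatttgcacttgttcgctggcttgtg
Akr1c12: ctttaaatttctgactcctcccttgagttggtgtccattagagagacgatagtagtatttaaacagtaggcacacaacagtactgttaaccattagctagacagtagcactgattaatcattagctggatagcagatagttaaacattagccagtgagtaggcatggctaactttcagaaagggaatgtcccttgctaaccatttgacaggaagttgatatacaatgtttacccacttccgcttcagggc

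The genes most like Akr1c18 across the 6 arrays were sought by Pearson's r of the log2 values, a description over arrays that share the contrast that chose Akr1c18. The 10 highest were Agap2, Dnm1l, Atf1, Nrarp, Pdcd2, Evpl, Zdhhc8, Rragb, Prmt3 and Pus3, with r from 0.995 to 0.997. Their differences were smaller than that of Akr1c18, from -1.50 for Nrarp, a regulator of Notch signalling, to -0.24 for Dnm1l, which divides mitochondria. Of the other genes of the set, r was 0.988 and 0.966 for the Akr1c12 probes, 0.925 for Hsd11b1 and 0.906 for Hsd17b4. For the Cyp11a1 and Nr3c1 probes and the brighter Srd5a1 probe it ran from -0.53 to 0.07. The dimmer Srd5a1 probe, for which only a bound was measured, is left out. In all, 1783 other probes had r above 0.9, so a high r over 6 arrays was common.

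No gene of the remaining pathway lists passed the adjusted threshold, and the counts below give genes whose groups did not overlap, to be read beside the 16.0% of all tested probes with every cKO array above and the 20.5% with every cKO array below. Of 8 other aldo-keto reductases on the array, 6 were tested, with a median difference of 0.20. All cKO arrays were above the controls for Akr1b10 (0.64 ± 0.12; limma, adjusted p = 0.0963) and 1 further gene, and below for Akr1b3, the aldose reductase (-0.63 ± 0.25, adjusted p = 0.208). Akr1e1 differed by 0.29 and Akr1a1, an aldehyde reductase, by -0.03.

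Of 21 genes of steroid synthesis, 10 were tested, and 11 were dim, that is, read well above background by fewer than 3 arrays. The dim genes included Hsd3b1, of the family that makes progesterone from pregnenolone, and Cyp21a1, Cyp11b2 and Cyp19a1. The tested genes had a median difference of 0.12. The highest were Fdxr, which passes electrons towards mitochondrial P450 enzymes such as Cyp11a1 (0.41 ± 0.11, adjusted p = 0.145), and Tspo, a mitochondrial membrane protein (0.36 ± 0.12, adjusted p = 0.184), both with every cKO array above every control. The lowest were Stard3, a cholesterol carrier (-0.14), and Hsd3b7, of bile acid synthesis (-0.12).

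Of 15 genes of steroid inactivation and conversion, 6 were tested, with a median of 0.26. Sts, the sulfatase that frees steroids from their sulfates, read 1.43, 1.25 and 1.63 in the cKO arrays and 0.57, 0.75 and 0.18 in the controls, a difference of 0.94 ± 0.18 (adjusted p = 0.0990). Its groups did not overlap. Hsd17b11 differed by 0.45, and Srd5a3, a relative of Srd5a1 that acts on polyprenol, by -0.48 with all cKO arrays below.

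Of 12 other steroid receptors and binding proteins, 6 were tested, and the nuclear receptors for progesterone and oestrogen were dim. Paqr7, a membrane progestin receptor, differed by 0.97 ± 0.32 (adjusted p = 0.176) with all cKO arrays above. Paqr5, of the same family, differed by -1.36 ± 0.57 (adjusted p = 0.220), and its groups overlapped because cKO replicate 2 read -1.13, close to the controls at -1.22 to -1.12. Pgrmc1, a progesterone-binding membrane protein, differed by -0.18.

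The partners and targets of the glucocorticoid receptor were read beside Nr3c1. All 12 chaperones and coactivators were tested, with a median of -0.13, and all cKO arrays were below the controls for 4 of them. The narrowest of these 4 separations was 0.003. The lowest were Ncoa2, a coactivator (-0.41 ± 0.11, adjusted p = 0.139), and Hsp90aa1 (-0.32), and the highest Ncoa1 (0.21) and Ncor1 (0.06). Of the 10 target genes, all tested, 5 had every cKO array above the controls and 1 every cKO array below (16.0% and 20.5% of all tested probes), with a median of 0.36. Mt2, a metallothionein, read 7.06, 7.57 and 7.50 against 6.20, 5.70 and 5.78, a difference of 1.48 ± 0.20 (adjusted p = 0.0663). Tgm2, a transglutaminase, read 2.33, 3.41 and 3.87 against 2.15, 1.36 and -0.93, a difference of 2.34 ± 0.83 (adjusted p = 0.188). Sgk1, a kinase, read 4.61, 4.70 and 3.07 against 5.17, 5.19 and 5.74, a difference of -1.24 ± 0.46 (adjusted p = 0.196), and Fkbp5 differed by -0.01. The target genes thus differed in both directions but unevenly, with 5 wholly above the controls, only Sgk1 wholly below, and the groups of Fkbp5 overlapping. The narrowest of the 5 separations was 0.001.

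The interleukin-3 axis was read because Akr1c18 is known as an interleukin-3 response gene of T cells. Of 7 genes on the array 6 were tested, with a median of 0.35. All cKO arrays were above the controls for 3 of the 6 and below for 1 (16.0% and 20.5% of all tested probes). Il3 itself read 1.18, 1.37 and 0.26 in the cKO arrays and 1.85, 1.80 and 1.82 in the controls, a difference of -0.89 ± 0.29 (adjusted p = 0.175), with all cKO arrays below. Csf2rb, the shared receptor chain, read -2.47, -2.17 and -2.46 against -3.43, -3.96 and -5.56, a difference of 1.95 ± 0.53 (adjusted p = 0.144), and Jak2 differed by 0.61, both with all cKO arrays above. Csf2rb was well above background on only 2 of the 3 control arrays, and its value of -5.56 lay below the lowest signal well above background on that array, so the size of its difference is uncertain. Of 6 TH2 genes, 4 were tested and overlapped between the groups, Il1rl1 at 0.46, Gata3 at 0.28, Ccr8 at -0.29 and Il4 at -0.24, while Il5 and Il13 were dim. The Il1rl1 probe was well above background on only 2 of 3 arrays in each group, so the size of its difference is also uncertain.

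**Figure D4:**
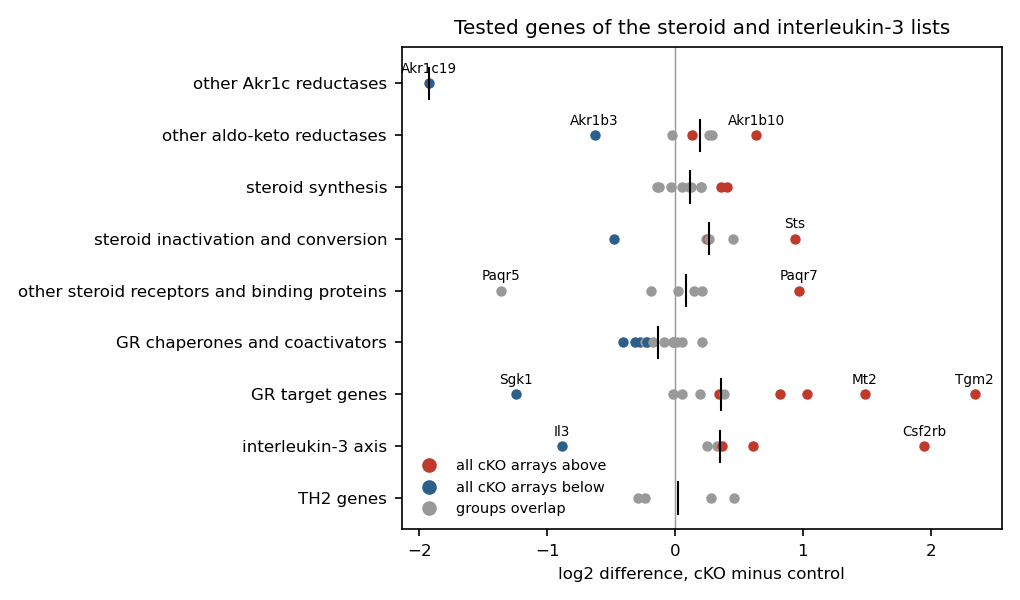
Log2 difference, cKO minus control (horizontal axis), of each tested gene by its brightest probe, for 9 lists (GR, glucocorticoid receptor). Vertical bars are medians. Red and blue points are genes with every cKO array above or below every control array, and grey points overlap. Akr1c19 at -1.93 and Sgk1 at -1.24 lie on the left of 0 and Tgm2 at 2.34 and Csf2rb at 1.95 on the right.

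Over the whole array, 55 of 22265 tested probes passed an adjusted p of 0.05, 34 higher and 21 lower in the cKO arrays, and 5085 had an unadjusted p under 0.05. After quantile normalization 12 were higher and 16 lower. Arrays had 49.3 to 57.7% of spots well above background, 0 saturated spots and 75th percentiles of 991 to 1153. Across probes, cKO replicate 3 correlated least with the other arrays (r from 0.948 to 0.979, against 0.967 to 0.989 among the others). Foxp3 and Cd4 were measured on all arrays. Foxp3 read 3.16, 3.12 and 2.45 in the cKO arrays and 3.41, 3.41 and 3.75 in the controls, a difference of -0.61 (adjusted p = 0.194), and like Akr1c18 was lowest in cKO replicate 3 and highest in control replicate 3.

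No marker of another cell type, of T cells or of Treg cells passed the adjusted threshold, with 0.135 as the lowest adjusted p (limma). The linear signals of the 6 T-cell markers on the array, each relative to the 75th percentile, summed to 245 to 305 in the cKO arrays and 230 to 239 in the controls, and those of the 7 Treg markers to 34.5 to 58.4 and 52.4 to 57.0. The 2 CD8 T-cell markers summed to 3.87 to 4.33 against 4.40 to 5.58. The T-cell sums were thus higher and the CD8 sums lower in every cKO array, and the Treg sums overlapped, but the members of a list did not go one way. Among the T-cell markers the difference was 0.74 for Cd3g and -0.28 for Cd3e, and among the Treg markers 0.94 for Ctla4 and -0.61 for Foxp3, each with groups that did not overlap, while both CD8 markers overlapped between the groups. Of 5 erythroid markers only Hbb-b1 was tested (difference 2.10, adjusted p = 0.164), and the sums were 0.531 to 1.11 against 0.219 to 0.413, and the other 4 markers were dim. Sums overlapped for the 6 B-cell markers (0.589 to 1.42 against 0.448 to 0.706), of which 4 were dim, and for the 8 myeloid marker names (0.172 to 0.333 against 0.165 to 0.388), of which only Csf1r was tested. Emr1 and Adgre1 among the myeloid names are symbols of the same gene, so the myeloid sums count that gene under both names. All 6 markers of mast cells and basophils, which respond to interleukin-3, were dim, with sums of 0.0731 to 0.173 against 0.102 to 0.252, as were all 5 stromal markers, with sums of 0.0710 to 0.114 against 0.0588 to 0.181. Their part in the values of Akr1c18, Akr1c12 and Hsd11b1 was not tested.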

How the data were processed

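Naive T cells of 3 cKO and 3 control mice were polarized into iTreg cells and read on 6 one-colour Agilent arrays, with 0.5 μg of RNA labelled with Cy3 for each. The authors deposited spot intensity values extracted with Agilent Feature Extraction, background-subtracted within each array and not normalized between arrays. The file headers give version 10.7.3.1, and the submitters' processing notes 9.1. A deposited table of log2 values, whose columns have medians of 6.15, has no stated normalization, and its scale was found from its correlation with the log2 signal of the same array (0.998 or higher). The IL-2 dose, the RNA kit and the spleen as the source are those of the labels. The study's methods give another dose and kit, and name lymph nodes beside the spleen.

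The processed signal was averaged over the spots of a probe without outlier spots, taken as log2, and the 75th percentile of its array was subtracted. A probe was tested where 3 or more of the 6 arrays read it well above background (22265 probes), and the rest are called dim. Differences, their standard errors and 95% intervals come from 1 limma fit (version 3.58.1 under R 4.3.3, lmFit then eBayes, without covariates), whose p-values were adjusted by Benjamini-Hochberg across the tested probes and set against 0.05. Where a gene had several probes, the one with the highest mean over all arrays stands for it. Tables used Python 3.11.15 and pandas 2.3.3, alignments Biopython 1.88 and plots matplotlib 3.10.9. The fit was tested on simulated data.

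The genes and lists were chosen with earlier results of these data known. Named are every probe of the chosen genes, from each pathway list any gene past the adjusted threshold with the 2 tested genes of largest difference in each direction, and the 10 genes most like Akr1c18. Marker lists are given by their sums. Some genes of these lists are not reported by name here. The markers named with values, and the dim genes, were picked after their values were seen. Symbols and mm9 positions come from the array's annotation. Of 28049 probes on RefSeq transcripts, 27654 were matched to the RefSeq table of GRCm38.p6, from which promoter and microRNA sequences were taken. Each culture is from its own mouse. The number of arrays limits the precision.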

Additional observations from a re-analysis of the deposited data

How the results depend on the processing

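Akr1c18 was chosen for its fall, so its direction under the alternatives is not a test. It differed by -3.78 to -4.30 under the alternatives that kept all arrays or a slide. When each array was left out, it differed by -4.86 to -3.75. With its groups 2.65 apart, leaving out an array could not turn its direction. The filters on background, the replicate block and the mean over probes leave its single probe at -4.30 by construction. The slide as a term and the fit within the slide give the same value, -3.78. Akr1c12 differed by -2.36 to -1.76 on the brighter probe and by -2.60 to -0.92 on the dimmer, the last with normexp. Hsd11b1 differed by -1.16 to -0.88, Hsd17b4 by -0.35 to -0.12 and Akr1c19, added after its values were seen, by -2.26 to -1.35. Their groups did not overlap either, so leaving out an array or keeping to the shared slide could not turn their direction. The brighter Srd5a1 probe, whose groups overlap, kept its direction (0.20 to 0.56). The mean over the Srd5a1 probes (1.26) is left out, as only a bound was measured for the dimmer probe. With only the probes well above background on all 6 arrays, Hsd11b1 (-1.03, adjusted p 0.0416 in limma), Akr1c19 (-1.93, adjusted p 0.0484) and the dimmer Akr1c12 probe (-2.21, adjusted p 0.0495) passed the threshold. The brighter Akr1c12 probe (adjusted p 0.0504) did not. The sign of Cyp11a1 turned with normexp correction (-0.041), with the slide as a term and within the slide (-0.023 for both) and on leaving out cKO replicate 2 or control replicate 3 (-0.15 and -0.058, range over all arrays left out -0.15 to 0.29), and that of Nr3c1 with normexp (-0.10) and without cKO replicate 3 (range -0.13 to 0.13). The cause was not tested. Normexp also moved the median of all probes from -0.04 to 0.11.

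The 55 probes past the adjusted threshold became 28 with quantile normalization, 28 with the authors' table, and 172 with only the probes well above background on all 6 arrays. They became 0 with normexp (1749 at an unadjusted p under 0.05), without a filter on dim probes (4698), with the slide as a term (1646), within the slide (1314, where the one control array is assumed to vary like the others) and with the methods' test (4014). Leaving out each array gave 0 to 1, 1 without control replicate 1 and 0 without any other. With the replicate number as a replicate block there were 0 (3622 unadjusted) and Akr1c18 differed by -4.30. Same-numbered arrays correlated at -0.14, 0.01 and -0.19 after removal of group means, and nothing else pairs them.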
